A study of Homo sapiens with 15 samples.

Results

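Matrix metalloproteinases (MMPs) are zinc-dependent enzymes that cut collagens, gelatins and other proteins of the extracellular matrix, and tissue inhibitors of metalloproteinases (TIMPs) bind their active sites and block them. The 10 genes described here are 7 MMPs (MMP1, MMP2, MMP3, MMP9, MMP10, MMP14 and MMP15) and 3 inhibitors (TIMP1, TIMP2 and TIMP3), chosen by gene symbol, and all 10 were found among the 58219 genes of the count table. RNA was sequenced from BEAS-2B, an immortalized human bronchial epithelial cell line, grown in serum-free medium on collagen-coated plates. Cells received vehicle, 1 µg/cm2 or 30 µg/cm2 of PM2.5 (fine particulate matter, here a water extract of particles collected in Beijing) for 24 h. In a second protocol, which also used another plating density, cells received vehicle or 1 µg/cm2 of PM2.5 every day and were collected at the 7 d point. The sample labels and the study's methods describe the number of daily doses differently, so it is not given here. Each of the 5 conditions was run in 3 experiments, which made 15 libraries. All conditions came from this 1 cell line, with no genetic change, so the spread between experiments is not a spread between donors.

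In the airway, MMPs take part in matrix turnover, in wound closure by epithelial cells and in the release of growth factors and cytokines. Most MMPs are secreted or displayed as inactive precursors that other proteases must cut. MMP1 is an interstitial collagenase. MMP3 and MMP10 are stromelysins, MMP2 and MMP9 are gelatinases, and MMP14 and MMP15 are membrane-type enzymes held at the cell surface. TIMP2 has a particular double role, since at low amounts it joins MMP14 in activating the MMP2 precursor and at higher amounts it inhibits both. TIMP3 is bound to the matrix and also inhibits several ADAM and ADAMTS proteases.

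MMP10, MMP1 and MMP3 are neighbours on the minus strand of chromosome 11 (GRCh38), at 102770503 to 102780628, 102789920 to 102798160 and 102835801 to 102843803. TIMP1 lies at X:47582313-47586789 inside SYN1, and TIMP3 at 22:32801701-32863043 inside SYN3, each on the opposite strand from its host gene and sharing no exon base with it. The remaining members are MMP2 and MMP15 on chromosome 16, MMP14 on chromosome 14, MMP9 on chromosome 20 and TIMP2 on chromosome 17. Promoter sequences from RefSeq (GRCh38.p14) were at hand for 5 of the 10 members, which were MMP10, MMP14, MMP15, TIMP1 and TIMP3. The 250 bases upstream of the start are shown for the 3 of them whose mRNA level was called different in at least 1 comparison below. They are written 5′ to 3′ on the strand of the gene, with matches to the searched motifs in capitals.
TIMP1, chrX:47582186-47582435, plus strand: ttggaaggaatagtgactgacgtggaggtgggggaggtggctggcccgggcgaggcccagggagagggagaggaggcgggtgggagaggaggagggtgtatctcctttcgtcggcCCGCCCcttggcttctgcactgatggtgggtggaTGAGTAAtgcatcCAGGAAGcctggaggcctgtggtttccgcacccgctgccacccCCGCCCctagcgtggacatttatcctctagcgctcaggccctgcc
TIMP3, chr22:32801455-32801704, plus strand: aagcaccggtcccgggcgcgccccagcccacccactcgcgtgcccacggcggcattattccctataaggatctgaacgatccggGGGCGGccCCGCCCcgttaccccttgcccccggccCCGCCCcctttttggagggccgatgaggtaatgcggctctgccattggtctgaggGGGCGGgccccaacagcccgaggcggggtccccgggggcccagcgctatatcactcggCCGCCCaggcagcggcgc
MMP14, chr14:22836335-22836584, plus strand: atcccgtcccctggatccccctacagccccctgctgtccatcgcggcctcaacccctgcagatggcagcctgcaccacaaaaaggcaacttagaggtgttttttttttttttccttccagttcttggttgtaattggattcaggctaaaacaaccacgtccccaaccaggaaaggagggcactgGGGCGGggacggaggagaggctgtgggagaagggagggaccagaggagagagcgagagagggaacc
The motifs were the AP-1 consensus TGANTCA, an AP-1 variant TGAGTAA, an ETS site CAGGAAG, the GC box GGGCGG and the TATA box TATAAA, each on both strands, and no matches in these 3 sequences overlapped. The TIMP1 sequence held TGAGTAA from -101 to -95 and CAGGAAG from -88 to -82, counted back from the start, and 2 GC boxes. The TIMP3 sequence held 5 GC boxes and MMP14 held 1. Of 35116 promoters of the same length, 2.21% held the AP-1 variant, 6.57% the AP-1 consensus, 10.5% the ETS site, 42.6% the GC box and 10.7% the TATA box. In the MMP10 stretch, which is not printed, the consensus matched once at -67 to -61 and the TATA box once at -31 to -26, and MMP15 held 5 GC boxes. The TIMP1 stretch lies in an intron of SYN1 and the TIMP3 stretch in an intron of SYN3. In the GENCODE annotation, 28 bases of the TIMP1 stretch and 25 of the MMP14 stretch also belong to an exon of the gene itself. Nothing in these data measures binding of a factor to these sequences.

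The libraries held 21460981 to 34724765 reads assigned to genes (median 29243177). A floor of 3 counts in a library, which covers counting error only, then corresponds to 0.0867 to 0.149 CPM. Here CPM is counts per 1e6 reads assigned to genes, scaled between libraries by edgeR's TMM method. All 11 epithelial markers were detected in every library, and the leukocyte genes PTPRC and CD68 and the endothelial gene CDH5 stayed at or under the floor in 15 of 15. Of the rest of these 2 lists, CD3E, PECAM1 and VWF were at or under the floor in 13 of 15 libraries and ITGAM in 5, with a highest level of 2.43 CPM, while CD14 at 2.30 to 23.45 CPM and KDR at 0.404 to 3.30 CPM were above it in every library. The libraries of 24 h experiment 2 stood apart from those of experiments 1 and 3 in all 3 conditions. The chi-square statistic of their counts per degree of freedom was 72.4 to 171 against the other experiments, and 4.32 to 17.3 between experiments 1 and 3. Results at 24 h are therefore also given without experiment 2 where that changes a call or a value by a marked amount. The third library of daily exposure also differed from its group, at 24.5 and 19.1 per degree of freedom against 4.58 between the other two.

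Compared per length of transcript, as FPKM averaged over 15 libraries, TIMP1, TIMP2 and MMP14 were by far the most abundant members. TIMP1 stood at 117 FPKM, TIMP2 at 41.4 and MMP14 at 34.0, followed by TIMP3 at 7.48 and MMP15 at 6.62. The order of the first 3 differed by condition, and TIMP1 averaged 302 FPKM at 30 µg/cm2. In the 7 d controls MMP14 averaged 50.3 FPKM, TIMP2 47.8 and TIMP1 34.5. After daily exposure these were 38.2, 33.6 and 30.4 FPKM. Over 15 libraries the secreted enzymes were low, with MMP1 at 1.25 FPKM, MMP2 at 0.807 and MMP3 at 0.738. MMP10 at 0.0935 FPKM and MMP9 at 0.0579 FPKM sat at the floor of 3 counts or under it in 8 and 7 of 15 libraries. These 2 did not pass the filter on low counts, and the other 8 members were tested among 17599 genes. A call required an adjusted p-value (Benjamini-Hochberg, over all tested genes) under 0.05 in edgeR's quasi-likelihood test together with an absolute log2 difference of at least 0.6, a fold of 1.52. Values of SE beside a log2 difference are those of the fit over 15 libraries with 3 per condition.

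**Figure D1:**
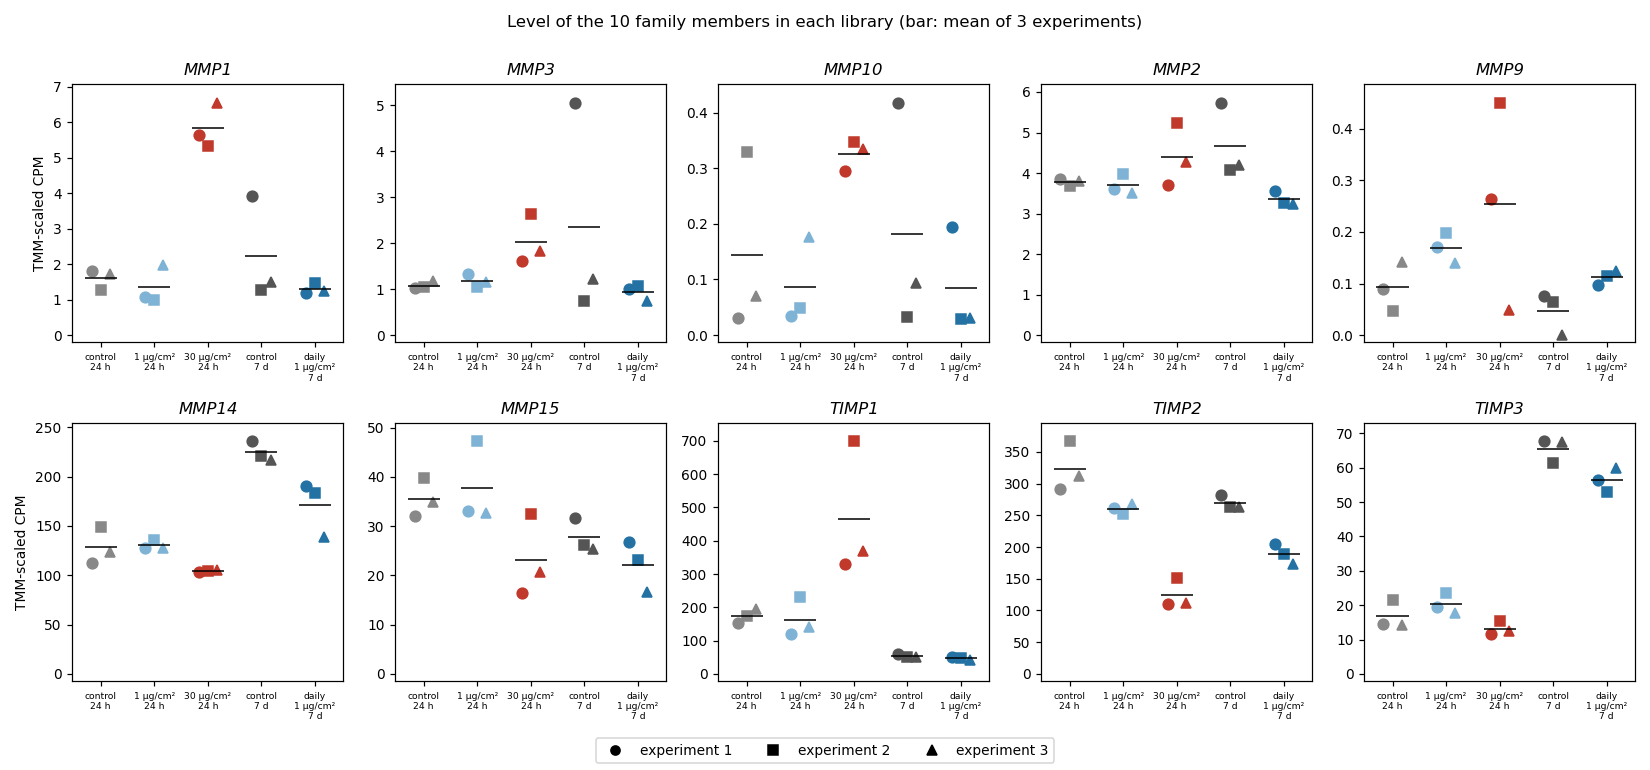
TMM-scaled CPM (linear axis, its own scale in each panel) of the 10 members in the 15 libraries, by condition. Marker shapes give the experiment and bars the mean of 3. MMP1 and TIMP1 were highest and TIMP2 lowest in the 3 libraries at 30 µg/cm2. TIMP3 was highest in all 7 d libraries and MMP14 in the 7 d controls.

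A first question was how the family responded to the high dose for 24 h. At 30 µg/cm2, MMP1 and TIMP1 rose and TIMP2 fell against the vehicle control, so that 3 of the 8 tested members were called, 2 higher and 1 lower. Over all tested genes 8.07% were called in this comparison, with 673 higher and 747 lower. The median log2 difference was -0.04 over the 8 members and 0.03 over all genes.

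MMP1, the collagenase, was at 1.81, 1.27 and 1.74 CPM in the 24 h controls of experiments 1, 2 and 3, and at 5.65, 5.34 and 6.56 CPM after 30 µg/cm2. Every treated library exceeded every control. The log2 difference was 1.85 (SE 0.379, n = 3 per condition, edgeR adjusted p = 0.00672), a 3.62-fold higher level. These values rest on 27 to 60 reads per control library and 137 to 172 per treated one. Without experiment 1 or without experiment 3 the log2 difference was 1.95 and 1.81, with adjusted p = 0.0736 and 0.0819 in edgeR. The annotation places 150 exon bases of MMP1 under WTAPP1 on the opposite strand, and WTAPP1 had a median count of 2.

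TIMP1, a secreted inhibitor of most MMPs, was at 153, 175 and 196 CPM in the controls and at 329, 698 and 370 CPM after 30 µg/cm2. The ranges were apart, and the library of experiment 2 was far higher than the other two. The log2 difference was 1.42 (SE 0.279, edgeR adjusted p = 0.00520), or 2.67-fold, and 0.99 (SE 0.135, edgeR adjusted p = 2.57e-05) when experiment 2 was left out. When the model was fitted to the compared groups alone, the adjusted p from edgeR was 0.0568 at a log2 difference of 1.41.

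TIMP2 moved in the other direction. Its control libraries were at 291, 367 and 312 CPM and those at 30 µg/cm2 at 109.5, 151 and 112 CPM, with no overlap. The log2 difference was -1.38 (SE 0.138, edgeR adjusted p = 4.39e-05), that is a 2.60-fold lower level. TIMP2 was called under each of the 19 alternative analyses of this comparison. Of its 50-base stretches, 7.78% also occur in ENSG00000267601 or CEP295NL, whose median counts were 0 and 6 against 7420 for TIMP2.

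The membrane-type enzymes had lower mean levels at 30 µg/cm2, and neither was called. MMP15 was at 32.0, 39.8 and 34.9 CPM in the controls and at 16.5, 32.5 and 20.7 CPM after treatment, so that 1 treated library reached into the control range. Its log2 difference was -0.62 (SE 0.241, edgeR adjusted p = 0.133). The replicate numbers mark shared experiments, and with the experiment as a block MMP15 was called, at -0.66 (edgeR adjusted p = 0.00188). That fit called 4 members and 15.2% of all tested genes. Without experiment 2 the MMP15 difference was -0.87 (edgeR adjusted p = 0.000830), also called. MMP14, which activates the MMP2 precursor, was at 113, 149 and 124 CPM in controls and within 103 to 105 CPM in all 3 treated libraries. Each treated library was below each control, with a log2 difference of -0.30 (SE 0.131, edgeR adjusted p = 0.178). With the experiment as a block, MMP14 gave -0.29 (edgeR adjusted p = 0.0375), under the fold threshold for a call.

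Of the others, the stromelysin MMP3 was at 1.02, 1.04 and 1.17 CPM in controls and at 1.61, 2.64 and 1.82 CPM after 30 µg/cm2. The treated libraries were all above the controls, but the log2 difference of 0.91 had an SE of 0.530 (edgeR adjusted p = 0.333). The gelatinase MMP2 gave 0.22 (SE 0.183, edgeR adjusted p = 0.517) and TIMP3 -0.35 (SE 0.173, edgeR adjusted p = 0.242). With the experiment as a block, TIMP3 gave -0.34 (edgeR adjusted p = 0.0151), also under the fold threshold. MMP10, the stromelysin next to MMP1, had 1, 7 and 2 reads in the controls and 9, 10 and 7 after 30 µg/cm2, and MMP9 had 3, 1 and 4 against 8, 13 and 1. With no filter on low counts, the log2 differences were 1.29 for MMP10 (SE 0.843, edgeR adjusted p = 0.604) and 1.41 for MMP9 (SE 0.828, edgeR adjusted p = 0.529), so that a difference was not detectable at this depth. MMP3 and MMP10 share 59 of their 50-base stretches, 3.18% and 3.36% of each, and reads from those cannot be told apart. Of the MMP9 stretches, 11.1% also occur in SLC12A5-AS1.

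**Figure D2:**
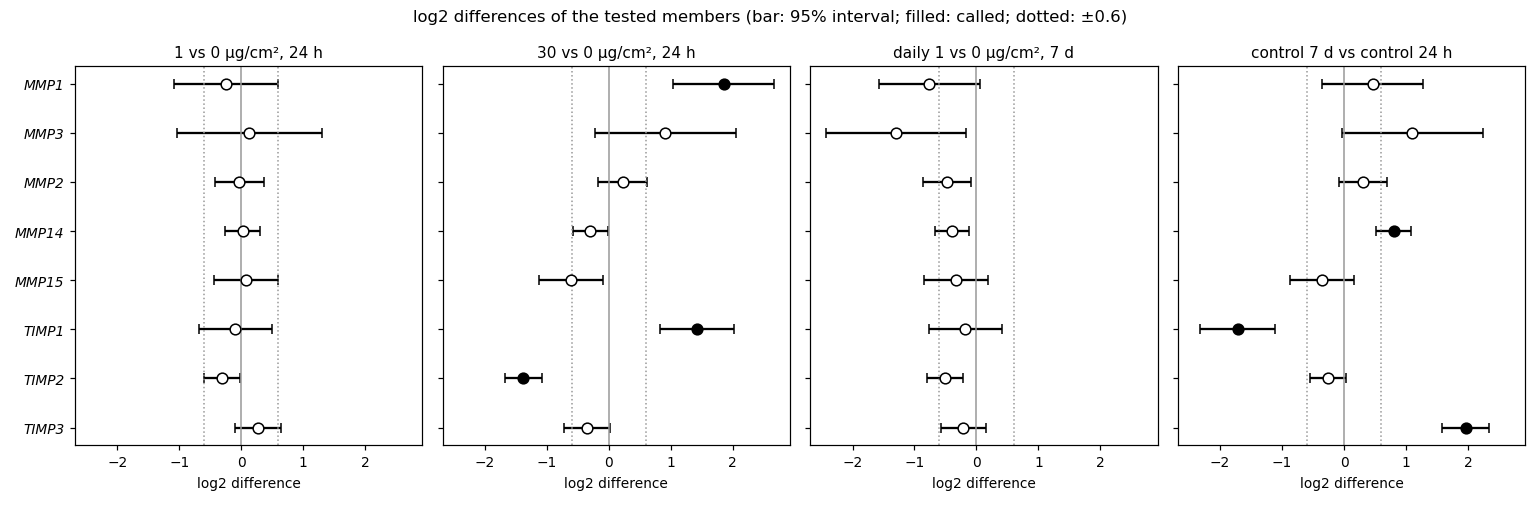
Log2 differences of the 8 tested members in 4 comparisons, with 95% intervals. Filled points were called and dotted lines mark ±0.6. No point is filled for 1 µg/cm2 at 24 h or for daily 1 µg/cm2, MMP1, TIMP1 and TIMP2 are filled for 30 µg/cm2, and MMP14, TIMP1 and TIMP3 for the controls of both protocols.

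The same controls were set against 1 µg/cm2 for 24 h. None of the 8 tested members was called by edgeR, where 0.0625% of all tested genes were, and DESeq2 also called none. At an unadjusted p under 0.05, 1 member passed, against 3.03% of all genes. That member was TIMP2, at 262, 252 and 268 CPM after 1 µg/cm2, each below the lowest control of 291 CPM. Its log2 difference was -0.31 (SE 0.136), with an adjusted p of 1 from edgeR. TIMP1 was at 118, 230 and 141 CPM, which spanned the control range, and gave -0.10 (95% interval -0.69 to 0.49). Within experiments 1, 2 and 3 its log2 differences were -0.36, 0.39 and -0.47, so that experiment 2 went the other way. Without experiment 2 no member was called, where 378 of 17950 tested genes were. The MMP1 libraries were at 1.09, 0.991 and 1.97 CPM, and the interval of its difference ran from -1.08 to 0.59. For MMP14 the interval was -0.26 to 0.30, for MMP15 -0.43 to 0.60 and for TIMP3 -0.10 to 0.63. The intervals for MMP2, at -0.43 to 0.36, and MMP3, at -1.03 to 1.30, held 0 as well.

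To compare the 2 doses, 30 µg/cm2 was set directly against 1 µg/cm2 at 24 h. This comparison uses the same 30 µg/cm2 libraries as above, so its values are not independent of them. Of the 8 members 4 were called, 2 higher and 2 lower, where 7.84% of all tested genes were. MMP1 was 4.29-fold higher (log2 2.10, SE 0.385, edgeR adjusted p = 0.00378) and TIMP1 2.86-fold higher (log2 1.51, SE 0.279, edgeR adjusted p = 0.00394). TIMP2 was 2.10-fold lower (log2 -1.07, SE 0.137, edgeR adjusted p = 0.000423). TIMP3 was at 19.4, 23.6 and 17.6 CPM after 1 µg/cm2 and at 11.5, 15.5 and 12.6 CPM after 30 µg/cm2. Its log2 difference of -0.61 (SE 0.173, edgeR adjusted p = 0.0374) lay next to the threshold, and 8 of 19 alternatives did not call it. MMP15 gave -0.70 (SE 0.242, edgeR adjusted p = 0.0863), with each of the 3 libraries at 30 µg/cm2 below each at 1 µg/cm2. Without experiment 2 it was called, at -0.86 (SE 0.173, edgeR adjusted p = 0.00103). It was called with the experiment as a block, at -0.73 (edgeR adjusted p = 0.000988), a fit that called 5 members and 15.6% of all genes. Fitted to the compared groups alone, edgeR called only MMP1 of these members.

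The levels at 24 h can be put in order by dose. For TIMP1 and MMP1 the high dose stood above the other 2 conditions, whose libraries overlapped. For TIMP2 the order was control, low dose and high dose with no overlap between libraries of neighbouring conditions, of which the step from control to low dose was not called.

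The repeated protocol asked what the low dose does when it is given daily. None of the 8 members was called by edgeR, where 0.227% of all tested genes were, and DESeq2 called none either. At an unadjusted p under 0.05, 4 of 8 passed, which were MMP2, MMP3, MMP14 and TIMP2, against 11.9% of all genes. All 8 log2 differences were below 0, with a median of -0.44 against 0.01 over all genes.

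TIMP2 was at 282, 263 and 263 CPM in the 7 d controls and at 204, 190 and 174 CPM after daily exposure, with no overlap. The log2 difference was -0.51 (SE 0.136, edgeR adjusted p = 0.144), a 1.42-fold lower level. With the experiment as a block the adjusted p from edgeR was 0.0108 at the same log2 difference, under the fold threshold for a call. MMP14 was at 236, 221 and 216 CPM in the 7 d controls and at 190, 183 and 139 CPM after daily exposure, again with no overlap, and gave -0.39 (SE 0.131, edgeR adjusted p = 0.237; 0.0199 with the block). Both genes were thus lower in all 9 pairs of libraries at a fold below the threshold, and so were MMP2 and TIMP3. The share of all tested genes separated in this way was not counted, so no result about these members is drawn from it. The third daily library, which stood apart, was the lowest of its group for TIMP2 and MMP14. Without it the differences were -0.45 for TIMP2 (edgeR adjusted p = 0.450) and -0.27 for MMP14 (edgeR adjusted p = 0.638).

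For MMP3 and MMP1, 1 control library set the values. MMP3 was at 5.05, 0.739 and 1.22 CPM in the 7 d controls and at 1.00, 1.07 and 0.749 CPM after daily exposure, so that experiment 1 of the controls was far above the other two. MMP1 followed the same pattern, with 3.91, 1.29 and 1.51 CPM in the controls and 1.20, 1.47 and 1.25 CPM after exposure. The log2 differences of -1.30 for MMP3 (SE 0.527, edgeR adjusted p = 0.344) and -0.76 for MMP1 (SE 0.381, edgeR adjusted p = 0.461) became -0.06 and -0.10 without that library. MMP2 was at 5.74, 4.08 and 4.20 CPM in controls and at 3.56, 3.26 and 3.24 CPM after exposure, with no overlap. Its difference of -0.48 (SE 0.182, edgeR adjusted p = 0.314) was -0.30 without that library. MMP10 had 11, 1 and 3 reads in these controls and 6, 1 and 1 after exposure, and MMP9 had 2, 2 and 0 against 3, 4 and 4. TIMP1, TIMP3 and MMP15 differed by -0.18, -0.21 and -0.32, with adjusted p from edgeR of 0.648 to 0.851. The MMP15 value was -0.16 without the third daily library, which at 16.7 CPM was below the other two at 26.7 and 23.0.

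In the same library, genes of fibroblast matrix were high as well. DCN (decorin) was at 8.47 CPM and COL1A2 (a collagen I chain) at 28.9 CPM in experiment 1 of the 7 d controls, against 3.84 to 7.04 CPM and 14.6 to 29.7 CPM in the other libraries. The second high library was experiment 2 at 30 µg/cm2, with DCN at 7.04, COL1A2 at 29.7, MMP2 at 5.24 and MMP3 at 2.64 CPM. Its sum over the 9 mesenchymal or fibroblast markers, 1671 CPM, was nevertheless the lowest of its condition, and FN1 (fibronectin), the largest of them, was at 1095 CPM there against 2301 and 2245 CPM. Over 15 libraries, DCN was the tested gene most like MMP2 (Pearson r = 0.918 on the log2 scale) and COL1A2 the one most like MMP3 (r = 0.876). Without these 2 libraries, the values were 0.689 and 0.598 over 13 libraries. The points share library depth and scaling, and DCN and COL1A2 are on the list of fibroblast markers. These pairs were picked out after their values were seen. The 9 markers summed to 1049 CPM in experiment 1 of the 7 d controls and to 958 and 944 CPM in the other two. Across the conditions this sum was 1746 to 2909 CPM in the 24 h controls, 1334 to 2422 CPM after 1 µg/cm2, 1671 to 2655 CPM after 30 µg/cm2 and 619 to 649 CPM after daily exposure. PDGFRA and LUM stayed under 1 CPM everywhere. The part of such markers in these results was not tested.

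**Figure D3:**
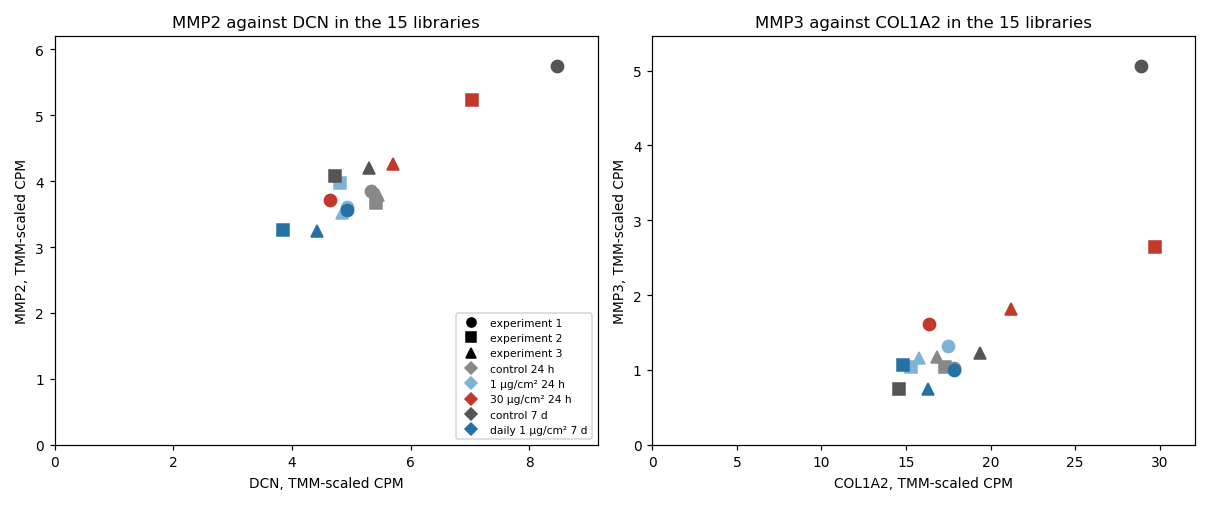
MMP2 against DCN and MMP3 against COL1A2, in TMM-scaled CPM with linear axes, 1 point per library. Colours give the condition and shapes the experiment. Experiment 1 of the 7 d controls is the point at the upper right in both panels, at 5.74 CPM of MMP2 and 5.05 CPM of MMP3.

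The responses were also compared with each other, from the same libraries as above. The daily response minus the 24 h response to 1 µg/cm2 was called for none of the 8 members by edgeR, where 0% of tested genes were called. DESeq2 called no member and 75 genes. At an unadjusted p under 0.05, 1 member passed, MMP14 at -0.42 (SE 0.185), against 7.07% of all genes. The daily response minus the response to 30 µg/cm2, which differs in both dose and duration, was called for 2 of 8 members, where 1.82% of tested genes were. MMP1 differed by -2.62 (SE 0.536, edgeR adjusted p = 0.0251) and TIMP2 by 0.87 (SE 0.192, edgeR adjusted p = 0.0361). TIMP1 differed by -1.59 (SE 0.390, edgeR adjusted p = 0.0569) and was called with the experiment as a block (edgeR adjusted p = 0.00111) and, at -1.16 (SE 0.177, edgeR adjusted p = 0.000115), without 24 h experiment 2. The fit with the block called 5 members, with MMP2 and MMP3 added, and 14.6% of all genes. These calls depended on single libraries. MMP1 lost its call without control 1 or 3 or treated library 1 or 3 of the 24 h comparison, or without any of the daily libraries, at adjusted p from edgeR of 0.0512 to 0.0751. TIMP2 lost its call without any 1 of the compared libraries other than control 1 and treated library 2 of the 24 h comparison, at 0.0568 to 0.120.

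The largest differences for TIMP3, MMP14 and TIMP1 were between the 2 control groups. These groups were separate experiments and differ in time in culture, plating density, and washing and vehicle every day. Such differences cannot be told apart. Of 8 members 3 were called, 2 higher and 1 lower at 7 d, where 21.9% of all tested genes were. TIMP3 was at 14.6, 21.6 and 14.3 CPM in the 24 h controls and at 67.7, 61.3 and 67.4 CPM in the 7 d controls, a 3.89-fold higher level (log2 1.96, SE 0.175, edgeR adjusted p = 9.08e-06). MMP14 was 1.75-fold higher (log2 0.80, SE 0.132, edgeR adjusted p = 0.000613) at the levels given above. TIMP1 was 3.29-fold lower, with 59.6, 49.6 and 50.2 CPM at 7 d (log2 -1.72, SE 0.282, edgeR adjusted p = 0.000621). All 3 were called under each of the 21 alternatives. TIMP2 differed by -0.26 (95% interval -0.55 to 0.03), MMP15 by -0.36 and MMP2 by 0.31. MMP3 at 1.10 and MMP1 at 0.46 again rested on experiment 1 and were -0.13 and -0.21 without it.

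Summed per length, the ratio of the 3 inhibitors to the 7 enzymes described here had different ranges by dose and by protocol. TIMP4, at 22.8 FPKM over 15 libraries and so above TIMP3, is not among them and is left out of the sums and shares. The summed FPKM of the 3 TIMPs over that of the 7 MMPs was 4.12 to 4.88 in the 24 h controls, 3.34 to 4.63 after 1 µg/cm2 and 7.47 to 13.4 after 30 µg/cm2. In the 7 d protocol the ratio was 1.57 to 1.66 in controls and 1.58 to 1.92 after daily exposure. The make-up of these 3 inhibitors differed too. TIMP1 made up 64.9% ± 3.30 (SD, n = 3) of their summed FPKM in the 24 h controls and 91.9% ± 1.60 (SD, n = 3) after 30 µg/cm2. TIMP2 went from 33.0% ± 2.87 to 7.12% ± 1.40 (SD, n = 3 each). Of the 3 inhibitors, only TIMP1 had a higher mean at 30 µg/cm2 than in the 24 h controls, at 302 against 113 FPKM. TIMP2 averaged 57.4 FPKM beside 28.8 for MMP14 in the 24 h controls, and 22.0 beside 23.4 at 30 µg/cm2. The summed ratio does not weigh which inhibitor acts on which enzyme. In the 7 d controls TIMP2 was the largest of the 3 at 49.6% ± 1.13, with TIMP3 at 14.8% ± 0.728 (SD, n = 3 each) against 2.10% ± 0.444 in the 24 h controls. After daily exposure, TIMP2 made up 43.8% to 44.2%. MMP14 alone supplied 64.7% to 86.4% of the summed MMP FPKM. These are shares of mRNA and not of protein or activity, and in bulk RNA fewer cells with a transcript and less transcript per cell cannot be told apart. The summed level of 11 epithelial markers was 4056 to 4500 CPM in the 24 h controls, 1836 to 2939 CPM after 30 µg/cm2, 3707 to 4462 CPM in the 7 d controls and 2662 to 2874 CPM after daily exposure, and its part in these results was not tested.

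**Figure D4:**
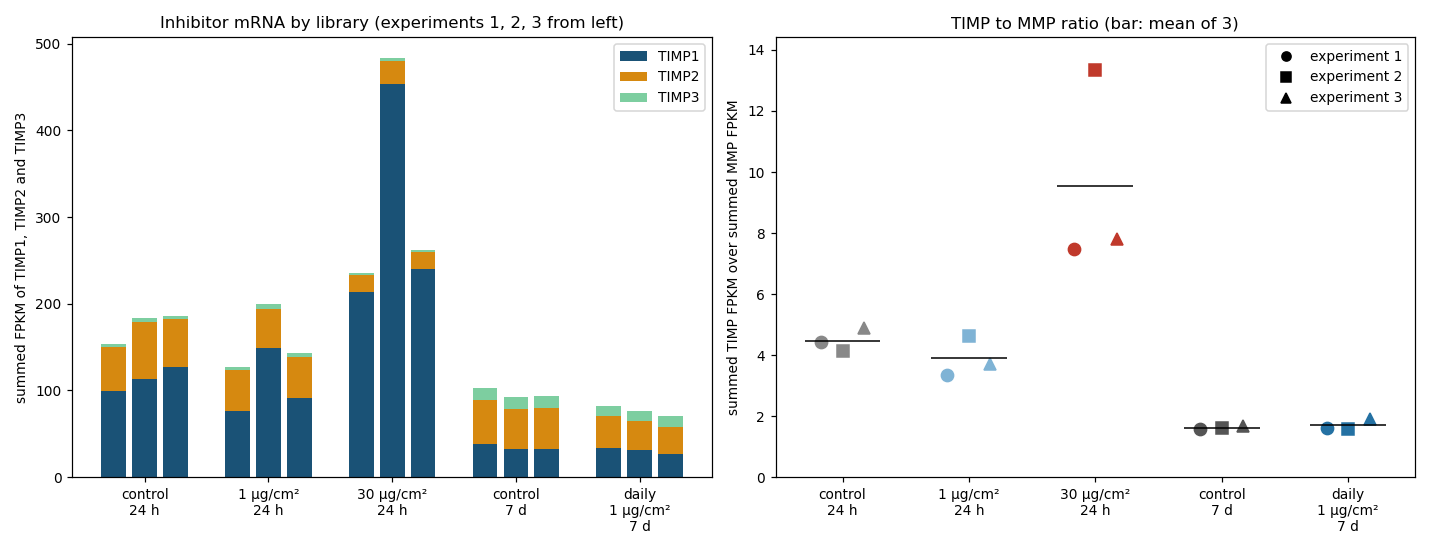
Left, stacked FPKM of TIMP1, TIMP2 and TIMP3 in each library. Right, summed TIMP FPKM over summed MMP FPKM, with bars at the mean of 3. The ratio was at 7.47 or above in the 3 libraries at 30 µg/cm2 and at 4.88 or below in all others, and the TIMP3 part is wider in the 7 d libraries.

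Genes around the family were described by 4 lists. They held 16 other MMPs, 12 other inhibitors and clearance genes, 14 activators and inducers, and 16 ADAM and ADAMTS proteases. Of the other MMPs, 7 of 16 were tested, and edgeR without the block called none of them in any comparison with PM2.5. With the experiment as a block it called MMP28 lower at 30 µg/cm2, by -1.48 against control (edgeR adjusted p = 0.00740) and -1.66 against 1 µg/cm2 (edgeR adjusted p = 0.00331). The block also called MMP19, at 0.68 after daily exposure (edgeR adjusted p = 0.0177) and at 0.65 for the daily response minus that to 30 µg/cm2 (edgeR adjusted p = 0.0433). Between the controls, MMP19 was lower at 7 d (log2 -1.32, edgeR adjusted p = 0.00143) and MMP28, an epithelial MMP, was higher (log2 1.94, edgeR adjusted p = 0.0246). The other 9 had at most 4 reads in any library.

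At 30 µg/cm2 against control, 1 of the 12 other inhibitors rose and 1 fell, 2 of the 14 activators fell, and of 15 tested ADAM and ADAMTS genes 1 rose and 2 fell, where 8.07% of all tested genes were called. The median log2 differences of these 3 lists were -0.06, -0.27 and -0.53, beside 0.03 over all genes. With the block, the 7 listed genes called became 16, where 15.2% of all tested genes were called. RECK, a membrane-anchored MMP inhibitor, was at 20.5 ± 2.21 against 32.7 ± 2.25 CPM (SD, n = 3 each), with a log2 difference of -0.67 (edgeR adjusted p = 0.00169). SERPINB2, an inhibitor of plasminogen activators, was at 12.4 ± 6.89 against 0.421 ± 0.157 CPM (log2 4.86, edgeR adjusted p = 0.00148). Both plasminogen activators were lower, PLAU by -0.84 (edgeR adjusted p = 0.0309) and PLAT by -0.61 (edgeR adjusted p = 0.00267). ADAM8 was higher by 0.99 on the log2 scale, and ADAMTS1 and ADAMTS12 were lower at -1.02 and -1.05. TIMP4, the remaining inhibitor of the family, was not called in any of the 7 comparisons, and it is named here after its values were seen.

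At 1 µg/cm2 for 24 h and after daily exposure, edgeR called none of these listed genes. With the experiment as a block it called 2 and 7 of them, where 0.42% and 4.39% of all genes were called, and no member. Their medians after daily exposure were -0.08 for the other MMPs, -0.16 for the other inhibitors, -0.20 for the activators and -0.24 for the ADAM and ADAMTS genes. Between 30 and 1 µg/cm2, 8 listed genes were called, where 7.84% of all tested genes were. SERPINB2 at 3.48, ADAM8 at 1.30 and CLDN1 at 0.90 were higher at 30 µg/cm2, and ADAMTS15 at -2.95, SPOCK2 at -1.73, PCSK6 at -1.25, ADAMTS12 at -0.995 and PLAT at -0.66 were lower. Between the controls, 13 listed genes were called, MMP19 and MMP28 included, where 21.9% of all tested genes were. Here the trypsin-like proteases KLK5 and ST14 and the chymotrypsin-like KLK7 were higher at 7 d, by 3.52, 1.52 and 6.10 on the log2 scale. PCSK5, a proprotein convertase, was higher by 1.39 and the scavenger receptor LRP1, which clears MMP and TIMP complexes, by 0.68. ADAM8 was higher by 0.89. THBS1 at -3.68, TFPI2 at -2.10, ADAMTS12 at -0.997, PLAT at -0.97 and ADAMTS1 at -0.72 were lower.

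Across the 15 libraries, the genes whose log2 CPM was most like that of each called member were found over all tested genes, as a description in which the libraries of a condition share their treatment. TIMP1 was most like the metallothioneins MT1X (Pearson r = 0.988) and MT1E (r = 0.982) and HM13 (r = 0.983). TIMP2 was most like MAOA (r = 0.968), PPM1H (r = 0.968) and ANGPT1 (r = 0.963). For TIMP3 the genes were TEF (r = 0.987), PKP1 (r = 0.983) and KLK8 (r = 0.983), and for MMP14 they were TRIM4 (r = 0.981), FBXL20 (r = 0.978) and MYCL (r = 0.972). MMP1 had lower values, with SH3KBP1 at 0.920, NSMAF at 0.918 and DEPDC1-AS1 at 0.916, and its low counts limit them.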

How the data were processed

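The authors deposited whole-number read counts for each gene without normalization, obtained with STAR and featureCounts from 50-base single-end reads of 15 libraries, and an exon length per gene. Options and strand of the counting are not given in the sources used here. The submitters' processing notes name hg19, but the deposited gene positions are those of GRCh38 (99.96% overlap the same gene in GENCODE 44).

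Groups and experiment numbers were read from the labels. According to the series record, the number marks the experimental batch. Deviations from group means correlated at 0.271 to 0.785 between 24 h libraries of the same number and at 0.177 to 0.266 between 7 d libraries. Between libraries of different number they correlated at -0.77 to 0.581 at 24 h, which overlaps, and at -0.196 to -0.0479 at 7 d. The 2 protocols are separate experiments, so their controls could not be blocked.

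The analysis used edgeR 4.0.16 under R 4.3.3, with filterByExpr by group (17599 genes kept) and TMM. In the earlier mode, 1 quasi-likelihood fit was made to all 15 libraries with a mean per group. This fit was tested on simulated counts without any effect of the experiment, which cannot show how it handles such effects. FPKM is TMM-scaled CPM per exon length. SE is the log2 difference over the root of F, with 95% intervals from the t quantile. Like genes were ranked by Pearson's r of log2(CPM + 0.5). Shared stretches are 50-base words of GENCODE transcripts. Alternatives were RLE or upper-quartile scaling, no filter or 1 CPM in 3 libraries, DESeq2 1.42.0, the likelihood ratio test, edgeR's current mode, the compared groups alone, the replicate block, the adjusted p-value alone, and leaving out libraries or experiments.

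All 10 members are reported. Of 4 lists of related genes, called ones are named, at most 8 per list and comparison. The members and lists were chosen with earlier results of these data known.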

Additional observations from a re-analysis of the deposited data

Results flagged for a closer look

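These 2 members were singled out because their response to daily exposure differed from their response to 30 µg/cm2 in a direct test of the difference, although dose and duration both differ between these. MMP1 gave a difference of -2.62 (daily minus high dose, log2, edgeR adjusted p = 0.0251). It was higher in 9 of 9 pairs of libraries at the high dose and lower in 8 of 9 after daily exposure, and without experiment 1 of the 7 d controls the difference was -1.95 (edgeR adjusted p = 0.0444). TIMP2 gave 0.87 (edgeR adjusted p = 0.0361). It was lower in 9 of 9 pairs in both, by -1.38 and -0.51, so the 2 estimates had the same direction and differed in size. The daily value of -0.51 was itself not called (edgeR adjusted p = 0.144). Of 28 alternatives, 16 did not call the difference of responses for TIMP2 and 12 did not for MMP1.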

How the results depend on the processing

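No called value of a member changed direction. Of 252 values of called members under an alternative, 209 stayed called and 43 did not. The members called numbered 3 for 30 µg/cm2 against control, 0 for 1 µg/cm2, 0 for daily exposure and 3 between the controls, and none of these moved by more than 1.5 times. The count between 30 and 1 µg/cm2, 4, was 1 when only the compared groups were fitted, 2 without 24 h experiment 1 and 2 without 24 h experiment 3. The daily response minus the response to 30 µg/cm2 had 2 members called, 5 with the replicate block, and 0 without 24 h experiment 1, 24 h experiment 3, or 7 d experiment 1, 2 or 3. It ranged over 0 to 3 with single libraries left out. The causes were not tested, and each of these fits has fewer libraries except that with the block. The block, with numbers that mark shared experiments, added MMP15 to both comparisons of 30 µg/cm2 and changed no call of a member elsewhere except in that difference of responses. The counts behind MMP1, MMP3, MMP9 and MMP10 limit what could be detected for them. Of the listed related genes, the block called 16 instead of 7 for 30 µg/cm2 against control and 16 instead of 8 between the doses. Over all genes, the calls for 30 µg/cm2 against control, 1420, ranged from 360 with the compared groups alone to 3430 without 24 h experiment 2, and were 2681 with the block. Those for 1 µg/cm2, 11, ranged from 2 with the compared groups alone to 378 without 24 h experiment 2, with 74 under the block and 39 in DESeq2. Those for daily exposure, 40, fell to 0 without control 1 or 3 or without experiment 1 or 2 of the 7 d protocol and to 1 without the third daily library, and reached 1029 with the compared groups alone, 773 with the block and 250 in DESeq2.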
